A study of Mus musculus with 168 samples.

Results

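Mir218-1 and Mir218-2 are the mouse genes that encode microRNA miR-218, and each lies in an intron of a gene for a secreted axon guidance protein. They were taken from the hippocampal count table as the rows whose Ensembl transcript identifiers map to these genes in GENCODE M21 (GRCm38, the build called mm10), which gave 2 of the 1626 transcripts in the table. Both passed the filter on low counts and were among the 470 transcripts tested. Small RNA libraries were made from the hippocampus of mice labelled C57BL/6, bred from heterozygous males and C57BL/6J females, at 2, 6 and 10 months of age (2m, 6m, 10m). The knock-in animals were heterozygous, with one normal Htt allele and one that carries human HTT exon 1 with a CAG repeat named by its length (Q20, Q80, Q92, Q111, Q140 or Q175), and wild-type (WT) animals carried no knock-in allele and were littermates of Q20. Q20 and WT were the controls. Each of the 21 groups held 8 libraries, 1 animal per library. Females and males were equal in number except that 5 of the 8 Q80 animals at 2m were male and 5 of the 8 Q20 animals at 10m were female. The Q175 line arose by spontaneous expansion of the repeat in the Q140 line, so the Q175 results rest on a single line, as do those of every other allele. Of 16 listed neuronal microRNAs, 15 were in the table and all 15 passed the filter on low counts. At 10m these summed to between 81945 and 96664 CPM (counts scaled to a common library total) in the Q175 and control libraries. Listed markers of other cell types passed the filter as well and no other tissue was compared, so this does not test the tissue label.

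MicroRNAs are short RNAs that guide a silencing complex to messenger RNAs, mainly through pairing of the bases near the 5′ end of the mature strand, the seed. A hairpin precursor is cut from the primary transcript and is then itself cut, and either arm (5p or 3p) can become a mature strand. miR-218 is known as a microRNA of neurons that is strongly enriched in motor neurons, where it acts in the identity and function of the cell. Its host genes Slit2 and Slit3 encode ligands of Robo receptors that repel growing axons, and transcripts of Robo1 are known targets of miR-218.

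The sequences of both hairpins are shown because they decide which reads can be assigned to a gene. They are from RefSeq (GRCm38.p6), both genes were matched there, and capitals mark the 5p and the 3p mature strand. Mir218-1 (ENSMUST00000083669) lies at chr5:48223942-48224051 on the plus strand, in intron 14 of the protein-coding Slit2 transcript ENSMUST00000173107 (36 exons). Mir218-2 (ENSMUST00000083649) lies at chr11:35616816-35616925 on the plus strand, in intron 14 of the Slit3 transcript ENSMUST00000069837 (36 exons). Both host genes are on the same strand as the hairpin within them.
Mir218-1 hairpin: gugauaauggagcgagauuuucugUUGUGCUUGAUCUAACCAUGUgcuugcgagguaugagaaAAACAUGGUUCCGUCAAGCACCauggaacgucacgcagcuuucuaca
Mir218-2 hairpin: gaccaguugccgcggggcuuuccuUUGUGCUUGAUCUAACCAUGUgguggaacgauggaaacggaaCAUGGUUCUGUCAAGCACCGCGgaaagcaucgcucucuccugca

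The mature strands are given with the seed, bases 2 to 8, in capitals. The 5p strand is the same 21 bases in both genes, whereas the 3p strands differ.
miR-218-5p, from either gene: uUGUGCUUgaucuaaccaugu
miR-218-1-3p, from Mir218-1: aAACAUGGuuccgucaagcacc
miR-218-2-3p, from Mir218-2: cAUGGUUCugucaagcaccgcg
A read of the 5p strand thus fits both loci. The miR-218-2-3p strand starts 3 bases further along, overlaps miR-218-1-3p over 19 bases and matches it at 18 of them, the exception being C12U, counted from the 5′ end of miR-218-1-3p. The 3 bases of offset give the 3p strands different seeds. Over the whole hairpins, 83 of 117 aligned columns were identical (70.9%). The seed of miR-218-5p was found in mature strands of only 3 genes among the 1738 mature entries of the RefSeq table, Mir218-1, Mir218-2 and Mir7002 (miR-7002-3p).

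How the deposited tables treat the genes was then examined. In the count table, neither gene had a whole number (tolerance 0.001) in any library, but the sum of both genes was whole in 163 libraries, the pattern that a division of shared reads between the loci would give. Which reads were divided was not tested, since the tables do not separate 5p from 3p reads. Mir128-1 and Mir128-2, another pair with a shared mature strand, likewise had no whole value for either gene and a whole sum in 101 libraries, and with a tolerance of 0.01 the sum was whole in 167 libraries for each pair. Raw counts ran from 1247 to 6434 for Mir218-1 and from 4962 to 19869 for Mir218-2, with library totals between 2117539 and 9099227 (median 3374648). The hairpins have the same length, so their CPM can be set side by side, and the median share of all counts was 0.0737% for Mir218-1 (rank 100 by summed counts) and 0.307% for Mir218-2 (rank 51). In the deposited RPKM table the same genes were nearly equal, with a ratio of Mir218-1 to Mir218-2 between 0.960 and 0.979 (median 0.971) in 152 libraries, against a ratio of counts between 0.121 and 0.358 (median 0.243) in those libraries. The remaining 16 libraries, all of the WT and Q175 animals at 6m and no others, had a ratio between 0.178 and 0.390 in both tables. These are called block A here, and the other 40 libraries at 6m block B. The counts thus give the genes unequal levels where the RPKM values give nearly equal ones, so the level of each gene alone depends on the table.

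**Figure D1:**
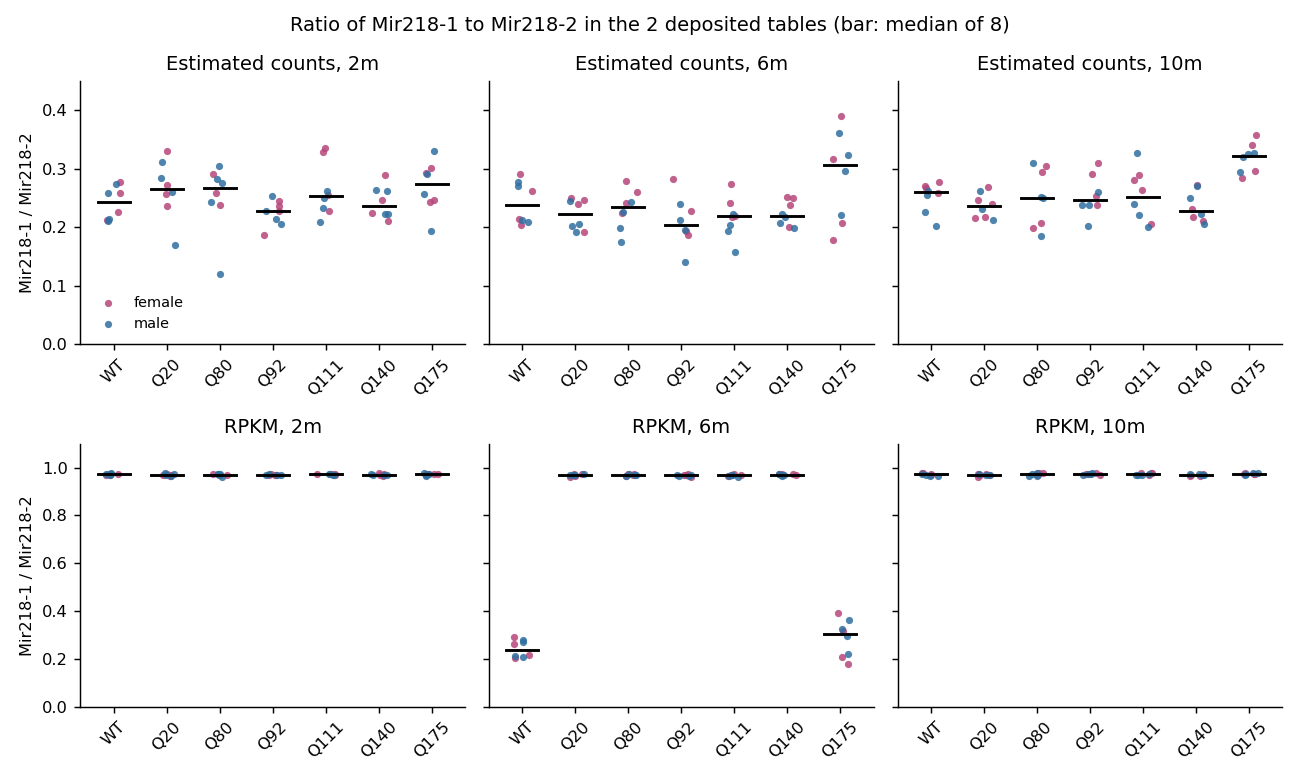
Ratio of Mir218-1 to Mir218-2 in each library (y axis, no unit) by genotype (x axis) at 2m, 6m and 10m, from the estimated counts (top row) and the RPKM values (bottom row), with points coloured by sex and bars at the median of 8 libraries. The ratio of counts was between 0.284 and 0.358 in the Q175 libraries at 10m, and the RPKM ratio left the range of 0.960 to 0.979 only in WT and Q175 at 6m.

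Mir218-2 was at a like level in every genotype at 2m and at 6m, and at 10m it was lower in Q175 than in the controls. At 10m its level (lowest, median and highest of 8 libraries) was 2878, 3082 and 3259 CPM in WT. The values were 2652, 2998 and 3368 CPM in Q20. In Q175 they were 1954, 2403 and 2731 CPM. All 8 Q175 libraries were thus below every WT library, and 7 of the 8 were below every one of the 16 control libraries. Q175 and control libraries did not overlap at all for 1.28% of the 470 transcripts, and Mir218-2 was not among these. No share over all transcripts was computed for the partial counts given here. The mean level was 2390 ± 254 CPM in Q175, 3071 ± 106 CPM in WT and 3010 ± 241 CPM in Q20 (n = 8 per group, ± SD).

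In the alleles between Q20 and Q175 the levels of Mir218-2 at 10m overlapped those of the controls. The lowest, median and highest values were 3011, 3237 and 3744 CPM in Q80. They were 2834, 3107 and 3620 CPM in Q92 and 2461, 3012 and 3625 CPM in Q111. In Q140, the line from which Q175 arose, they were 2586, 3142 and 3373 CPM. Of the 48 libraries of the other 6 genotypes, 3 were below the highest Q175 library, and 4 Q175 libraries were below all 48. The share of all transcripts with such counts was not computed. In descending order of the median, Q80, Q140, Q92, WT, Q111 and Q20 overlapped one another, and Q175 came last.

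With edgeR's quasi-likelihood test, adjusted for sex and batch, Mir218-2 fell by 0.36 (SE 0.04) on the log2 scale in Q175 against the controls at 10m, so that it was 0.781 of the control level (95% interval of the log2 change -0.44 to -0.27, Benjamini-Hochberg adjusted p = 2.27e-06). It ranked 5 by p-value among the 470 transcripts, of which 11.9% were called in either direction in this comparison and 6.38% were called lower. A fall was found within each of the 3 batches at 10m: -0.42 with 3 Q175 and 8 control libraries, -0.29 with 3 and 6, and -0.36 with 2 and 2. Leaving out any 1 library kept the change between -0.39 and -0.31. In a bulk tissue, fewer cells of a type and less RNA per cell cannot be told apart.

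Mir218-1 did not pass the test in Q175 at 10m. Its lowest, median and highest levels were 651, 754 and 888 CPM in Q175. In WT they were 657, 797 and 832 CPM, and in Q20 they were 619, 706 and 820 CPM. The Q175 libraries lay within the range of the controls except 1, which was higher than all of them. The log2 change was 0.02 (SE 0.05, 95% interval -0.08 to 0.12, edgeR adjusted p = 0.829). This interval does not reach the change of Mir218-2, which is not a test of the difference between the genes.

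**Figure D2:**
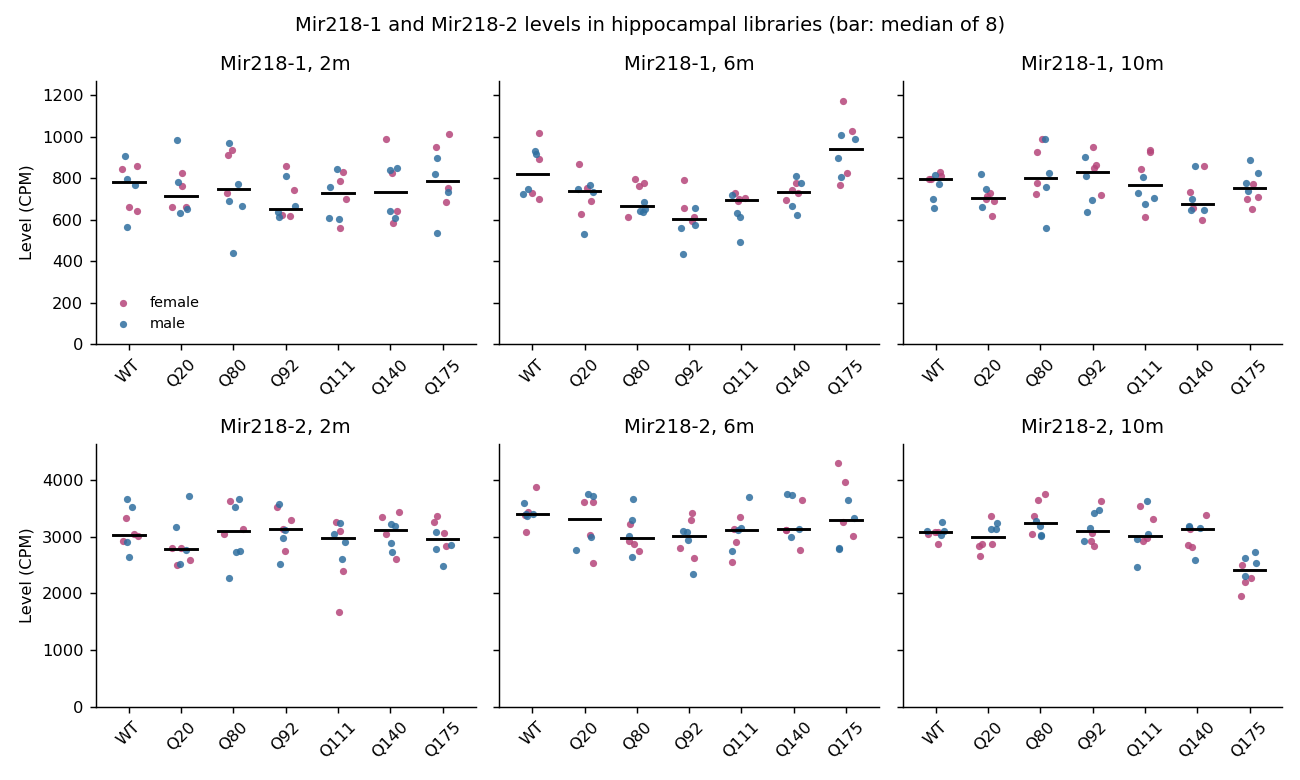
Levels of Mir218-1 (top row) and Mir218-2 (bottom row) in CPM (y axis) by genotype (x axis) at 2m, 6m and 10m, 1 point per library coloured by sex, with a bar at the median of 8. Mir218-2 in Q175 at 10m lay between 1954 and 2731 CPM, and Mir218-1 showed no such step there, with Q175 between 651 and 888 CPM.

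The fall was then examined in the sum of both genes and in the RPKM table, which does not separate the genes at 10m. When the counts of both genes were summed before the fit, the summed miR-218 signal fell by 0.26 (SE 0.04) in Q175 at 10m (edgeR adjusted p = 7.5e-05). The summed level was 2653, 3127 and 3619 CPM in Q175 (lowest, median, highest) against 3675, 3865 and 3918 CPM in WT and 3365, 3671 and 4098 CPM in Q20. All 8 Q175 libraries were below every WT library and 6 of the 8 were below every control library, counts for which no share over all transcripts was computed. In the RPKM table, tested with limma on log2(RPKM + 1), a check chosen after seeing the data, Mir218-1 fell by 0.27 (SE 0.05, adjusted p = 6.37e-04) and Mir218-2 fell by 0.27 (SE 0.05, adjusted p = 4.5e-04). At 10m the RPKM values of the genes were nearly equal, with a ratio of 0.971 to 0.979 in Q175 and 0.960 to 0.978 in the controls. They thus give no change for 1 gene alone, and the RPKM fall of Mir218-1 is no result about Mir218-1 itself. Both tables come from the same libraries, so the RPKM fall is not independent of the fall in the summed counts. The change of each gene alone rests on the counts.

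**Figure D3:**
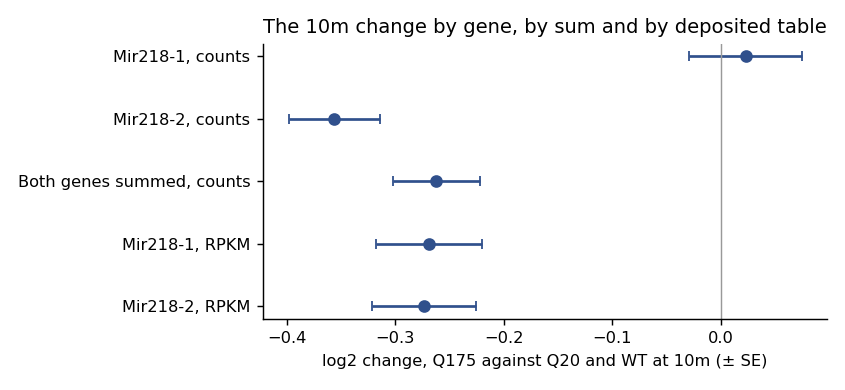
Log2 change in Q175 against Q20 and WT at 10m (x axis, points, with bars of 1 SE) for each gene and for their sum from the counts, and for each gene from the RPKM values. Mir218-1 was at 0.02 in the counts and fell by 0.27 in the RPKM values, and the sum of both fell by 0.26. The RPKM values of the genes were nearly equal at 10m and give no change for 1 gene alone.

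The division of counts between the genes was tested through the log2 ratio of Mir218-1 to Mir218-2 (raw counts, 1 added to each). At 10m the ratio of counts was 0.284, 0.323 and 0.358 in Q175 (lowest, median, highest), against 0.202, 0.261 and 0.277 in WT and 0.211, 0.235 and 0.269 in Q20. All 8 Q175 libraries were above all 16 controls. The mean log2 ratio was higher by 0.38, 1.3-fold (two-sided exact permutation test, p = 2.72e-06, the smallest that these samples can give, and 8.16e-06 after adjustment over the 3 ages). For single transcripts, an unlike measure to a ratio, the CPM of Q175 and control libraries did not overlap at 10m for 1.28% of the 470. Neither Mir218 gene was among these, and no such share was computed for ratios of other transcripts. Within the batches the ratio was higher by 0.50, 0.35 and 0.18, the last with 2 libraries on each side.

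At the younger ages the ratio did not differ past the threshold. The difference was 0.09 at 2m (exact permutation test, adjusted p = 0.388). At 6m it was 0.27 (exact permutation test, adjusted p = 0.0665), where 5 of 8 Q175 libraries were above all controls and 1 was below all of them. Against WT alone at 6m, which like Q175 is in block A, it was 0.21 (exact permutation test, p = 0.223). Mir128-1 and Mir128-2, the other pair with a shared strand, had a log2 ratio difference of 0.02 at 10m (exact permutation test, adjusted p = 0.706). The difference between the pairs in this shift was 0.36 (exact permutation test, adjusted p = 1.96e-04). In the RPKM table the ratio at 10m was 0.971 to 0.979 in Q175 and 0.960 to 0.978 in the controls. Whether the shift comes from 3p reads, which can tell the genes apart, or from the division of 5p reads was not tested.

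Both genes were then tested for a change with CAG length (Q) as a number, with 7 for WT, over the 56 libraries of each age. At 10m Mir218-2 fell by 0.15 (SE 0.04) per 100 repeats on the log2 scale (edgeR adjusted p = 0.00327), which placed it 14th of 470, with 11.1% of transcripts called and 5.32% called lower. Without the Q175 libraries the slope was -0.01 (edgeR adjusted p = 0.945), so the slope over the series rested on the longest allele. It was -0.12 in females alone (edgeR adjusted p = 0.201) and -0.17 in males alone (edgeR adjusted p = 0.111), neither of which passed, and the difference between the sexes was -0.06 (SE 0.07, edgeR adjusted p = 0.882). Mir218-1 had a slope of -0.01 (SE 0.04, edgeR adjusted p = 0.889). The summed counts fell by 0.12 per 100 repeats (edgeR adjusted p = 0.00884).

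At 2m and 6m no slope passed the test. For Mir218-2 the slope was -0.01 at 2m (SE 0.04, edgeR adjusted p = 0.988) and -0.01 at 6m (SE 0.04, edgeR adjusted p = 0.963). For Mir218-1 it was 0.02 (SE 0.05, edgeR adjusted p = 0.988) and 0.06 (SE 0.05, edgeR adjusted p = 0.604). The share of transcripts called was 0.213% at 2m and 1.28% at 6m. The slope of Mir218-2 was lower at 10m than at 2m by -0.14 (SE 0.06) and than at 6m by -0.14 (SE 0.06), differences that did not pass (edgeR, unadjusted p = 0.0227 and 0.0198, adjusted p = 0.263 and 0.538). A fall at 10m and none at the earlier ages is therefore not shown to be a difference between ages, and since no batch spans more than one age, age and batch cannot be told apart.

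Levels at the earlier ages overlapped throughout between Q175 and the controls. At 2m Mir218-2 was 2476, 2953 and 3367 CPM in Q175 (lowest, median, highest), within 2501 to 3722 CPM in the controls except for 1 lower library. At 6m it was 2779, 3295 and 4294 CPM in Q175, against 2530 to 3882 CPM in the controls, with 2 Q175 libraries above that range. The log2 changes against the controls were -0.03 at 2m (SE 0.06, edgeR adjusted p = 0.987) and -0.04 at 6m (SE 0.09, edgeR adjusted p = 0.989). Over those comparisons 0% and 3.4% of transcripts were called. At 2m, where 0 were called by edgeR, 8 had an unadjusted p under 0.05.

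Mir218-1 was highest in Q175 at 6m, with 765, 942 and 1175 CPM against 530 to 1019 CPM in the controls, and the change of 0.16 did not pass (SE 0.11, edgeR adjusted p = 0.534). Without the batch term it was 0.28 (edgeR adjusted p = 0.0446). With that term Q175 at 6m is in effect compared with WT, the only control in block A, and without it also with Q20, whose median was 740 CPM against 821 CPM in WT. At 2m the change was 0.09 (SE 0.10, edgeR adjusted p = 0.972).

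In the shorter alleles Q80, Q92, Q111 and Q140, neither gene was called against the controls at any age. Of these 24 tests by edgeR, 1 had an unadjusted p under 0.05, and 0 were called by DESeq2. The share of transcripts called in these comparisons was 0%, except 0.213% in Q111 at 6m. Mir218-2 had log2 changes between -0.13 (Q92 at 6m, SE 0.09) and 0.10 (Q92 at 2m, SE 0.06). Mir218-1 lay between -0.22 (Q92 at 6m, SE 0.11, edgeR adjusted p = 0.634) and 0.12 (Q80 at 10m, SE 0.08). At 6m these alleles are in effect compared with Q20 alone. In Q140 at 10m, Mir218-2 changed by -0.02 (SE 0.04, 95% interval -0.10 to 0.07) and Mir218-1 by -0.11 (SE 0.06, 95% interval -0.24 to 0.01). The interval for Mir218-2 in Q140 does not reach the change seen in Q175, which is not a test of the difference between these alleles.

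**Figure D4:**
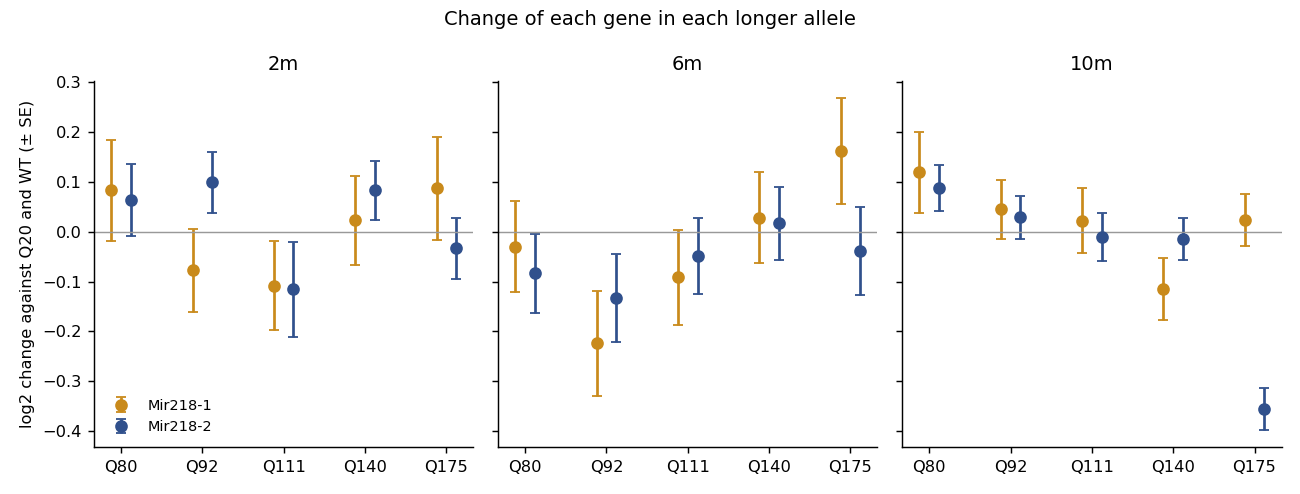
Log2 change of Mir218-1 and Mir218-2 (y axis, points, with bars of 1 SE) in each allele from Q80 to Q175 (x axis) at 2m, 6m and 10m. The controls are Q20 and WT, but at 6m the batch term leaves WT for Q175 and Q20 for the other alleles. Mir218-2 in Q175 at 10m fell by 0.36, and the other changes of Mir218-2 lay between -0.13 and 0.10.

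The direct comparison of Q175 with Q140 at 10m, 8 libraries each, gave a lower level of Mir218-2 by -0.30 (SE 0.07, edgeR adjusted p = 0.0363, with 3.19% of transcripts called and 0.851% called lower). This call was close to the threshold, and the number of transcripts called, 15, ran from 4 to 15 when 1 library was left out. The call of Mir218-2 was lost when any of 9 of the 16 libraries was left out (F1, F2, F4, M3 or M4 of Q140, or F3, F4, M3 or M4 of Q175, edgeR adjusted p up to 0.127), with changes between -0.35 and -0.27 over all 16. It was also lost with both genes summed (-0.21, edgeR adjusted p = 0.119). Mir218-1 differed by 0.14 (SE 0.08, edgeR adjusted p = 0.458).

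The ages 6m and 10m were also combined, by the sum of their signed Z values over the square root of the number of ages. Mir218-2 was then called in Q175 (mean log2 change -0.20, edgeR adjusted p = 5.33e-04, with 16.6% of transcripts called) and for the slope (mean -0.08 per 100 repeats, edgeR adjusted p = 0.0346, with 14.9% called). The call of the combined slope was lost under 8 of 12 alternatives, among them library totals in place of TMM scaling (adjusted p = 0.0571), no filter on low counts (adjusted p = 0.0713) and both genes summed (adjusted p = 0.0959). Mir218-1 was called in neither (0.09, edgeR adjusted p = 0.436, and 0.02, edgeR adjusted p = 0.671). For Mir218-2 the change in Q175 was -0.04 at 6m and -0.36 at 10m, and the slope was -0.01 at 6m and -0.15 at 10m.

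Sex made no difference that passed the test. Mir218-2 differed between males and females by 0.01 at each age on the log2 scale, with standard errors of 0.03 to 0.05. Mir218-1 was lower in males by -0.05 at 2m, by -0.11 at 6m and by -0.06 at 10m, and the smallest of the adjusted p-values was 0.588 (edgeR). In Q175 at 10m the female mean of Mir218-2 was 2231 CPM and the male mean was 2549 CPM. These means are not adjusted for batch, and most of these females were in another batch than the males, so sex and batch are largely confounded there.

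Other neuronal microRNAs were lower beside Mir218-2 at 10m. Of 15 tested members of the list of neuronal microRNAs, 8 fell in Q175 at 10m and 0 rose, where 6.38% of all transcripts tested were called lower and 5.53% higher, with a median log2 change of -0.14 against 0.01 over all transcripts tested. The 8 are not independent, since they include Mir132 with Mir212, Mir128-1 with Mir128-2 and Mir129-1 with Mir129-2. The list was chosen with earlier results of these data known, so the count is descriptive. Mir132 and Mir212, which share a primary transcript that neuronal activity induces, fell by 0.25 (SE 0.04) and 0.30 (SE 0.04), each with an edgeR adjusted p = 3.14e-05. Mir124a-1, one of the loci of the main neuronal microRNA, fell by 0.21 (SE 0.05, edgeR adjusted p = 0.00283), Mir128-1 by 0.15 (SE 0.04, edgeR adjusted p = 0.00732) and Mir129-1 by 0.32 (SE 0.08, edgeR adjusted p = 0.0116). The other Mir124a loci, Mir124a-2 and Mir124a-3, changed by -0.14 and -0.16 and were not called (edgeR adjusted p = 0.830 and 0.427). For the slope at 10m, 6 of the 15 fell and 0 rose, against 5.32% of all transcripts called lower and 5.74% higher. The list was summed to between 81945 and 89511 CPM in Q175 and to between 82931 and 96664 CPM in the controls at 10m, with 2 Q175 libraries below all controls. At 2m 0 of the 15 were called in Q175 (edgeR, 0 at an unadjusted p under 0.05), and at 6m 2 fell, against 2.13% of all transcripts called lower. At 6m 6 of the 15 had an unadjusted p under 0.05, which 16% of all transcripts reached. Of these 6, 1 was higher, Mir124a-2, with a change of 1.11 (SE 0.36, edgeR adjusted p = 0.104).

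Markers of other cells were not called in Q175 at 10m. None of the 3 oligodendrocyte microRNAs, 4 microglial and leukocyte microRNAs, 3 vessel microRNAs, 11 choroid plexus and epithelial microRNAs or 3 red blood cell microRNAs tested there passed (edgeR), where 11.9% of all transcripts were called. At an unadjusted p under 0.05, which 25.7% of all transcripts reached, there were 1 of the 11 in the choroid plexus and epithelial list and 2 of the 3 in the red blood cell list, all lower. Their summed levels in Q175 against the controls were 4043 to 5463 against 3113 to 5236 CPM for oligodendrocytes and 1163 to 1351 against 1159 to 1500 CPM for microglia and leukocytes. They were 16278 to 27546 against 16401 to 31815 CPM for vessels and 2632 to 3244 against 2448 to 3670 CPM for red blood cells. For choroid plexus and epithelium the ranges were 5339 to 28908 against 6170 to 32739 CPM, with 4 Q175 libraries below all controls and a median log2 change of -0.47 over the list, 0.01 over all transcripts. The median log2 change was -0.16 over the red blood cell list and -0.12 over the vessel list. It was 0.02 for oligodendrocytes and -0.003 for microglia and leukocytes. A lower median was thus not particular to the neuronal list. The part of these cell types in the change of Mir218-2 was not tested.

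The microRNAs whose levels were most like each gene were found by Pearson's r over the libraries of all 21 groups, on log2 CPM with the mean of each batch and the sex term removed. These values are descriptive, since the libraries share genotype, age and preparation. For Mir218-2 the highest values were 0.70 for Mir124a-1, 0.61 for Mir24-2, 0.56 for Mir186, 0.56 for Mir29a and 0.56 for Mir551b, of 469 transcripts. With the group means also removed these were 0.63, 0.56, 0.50, 0.49 and 0.49. Mir124a-1 and Mir24-2 share mature sequences with other loci, so their counts may be uncertain in the same way as those of the Mir218 genes. The lowest were -0.55 for Mir434, -0.48 for Mir541 and -0.47 for Mir10b, and the last of these was -0.24 once group means were removed. Mir10b rose by 3.27 (SE 0.32, edgeR adjusted p = 8.73e-08) in Q175 at 10m. Mir24-2, Mir186, Mir29a and Mir551b had changes of -0.15 (edgeR adjusted p = 0.0536), -0.12 (0.0116), -0.18 (0.00176) and -0.24 (0.0133) in that comparison.

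Mir218-1 resembled other genes. Its highest values were 0.43 for Mir3071, 0.41 for Gm25750, 0.40 for Mir376c, 0.39 for Mir300 and 0.37 for Mir421, and none of these was called in Q175 at 10m. Between Mir218-1 and Mir218-2 themselves r was 0.23, which ranked 71st of 469 for Mir218-2 and 35th for Mir218-1. Reads of the 5p strand fit both genes, and their part in this r was not tested.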

How the data were processed

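The study's methods describe extraction with miRNeasy, strand-specific single-end reads from a HiSeq2000, STAR alignment to mm10 and counting by HTSeq, and CASAVA 1.8.2 is named in the submitters' processing notes. The authors deposited estimated counts (a median of 51.5% of nonzero values per library were whole) and RPKM values. HTSeq by default gives whole counts, which had been assumed here, and how the fractional values arose is not given in the sources used. In total 1228 of 1626 transcripts matched GENCODE M21. Counts were rounded and tested with edgeR 4.0.16 (R 4.3.3; TMM, quasi-likelihood F test, filterByExpr with a minimum count of 10, sex and batch as covariates). P-values were adjusted by Benjamini-Hochberg over 470 transcripts with a threshold of 0.05, and the code was tested on simulated data. The standard error is the size of the change over the square root of F. Batch came from codes in the library names (3 at 2m, 3 at 10m, blocks A and B at 6m), whose meaning is unstated. Q92 F2 at 6m carries another code and was kept in block B. Alternatives used limma 3.58.1 on RPKM and DESeq2 1.42.0, and ratios used SciPy 1.17.1. No pair of libraries within a group was within counting noise (588 pairs, chi-square per degree of freedom at least 11.8). The genes named are the members, the members of each list that passed (up to 5 by adjusted p), and those with the 5 highest r for each gene and the 3 lowest for Mir218-2. The members and lists were chosen with earlier results of these data known. The RPKM test and the Mir128 comparison were added after seeing the data.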

Additional observations from a re-analysis of the deposited data

Results flagged for a closer look

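Of 84 combinations of a group with a measure (each gene, their sum and the ratio of counts), 2 held a library that stood apart from the other 7 of its group by Dixon's test, where chance flags about 1 in 20. The summed level was 4901 CPM in WT F2 at 6m, against a median of 4131 CPM in the other 7. The ratio of counts was 0.121 in Q80 M4 at 2m, against a median of 0.275 in the other 7.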

How the results depend on the processing

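The fall of Mir218-2 in Q175 at 10m passed the test under all 10 alternatives and without each library (-0.39 to -0.31), and the slope at 10m without each library (-0.16 to -0.13). Among the 10 are the sum of both genes and the RPKM values, which are no tests of Mir218-2 alone. The replicate numbers did not pair animals (correlation of same-numbered deviations over 0.1 in 41 of 162 pairs at 10m, 37 of 162 at 2m and 45 at 6m). With the replicate number as a block the change of Mir218-2 in Q175 at 10m was -0.36 and the slope -0.16, both called, and Q175 against Q140 was -0.33 and not called, while 81 transcripts were called for the slope at 10m in place of 52 and 4 in place of 15 for Q175 against Q140.

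Further calls of Mir218-2 were lost as follows. The 10m slope was -0.013 without Q175, -0.12 in females and -0.17 in males. The combined slope of 6m and 10m was -0.073 with library totals only, -0.080 without the filter, -0.068 with no batch term, -0.056 with the genes summed, -0.013 without Q175, -0.051 in females, -0.11 in males and -0.063 in RPKM. Q175 against Q140 was -0.30 without the filter, -0.21 summed, -0.22 in RPKM and -0.35 to -0.27 without each library. Calls absent for Mir218-1 appeared in its 10m slope in RPKM (-0.12) and in Q175 at 6m with no batch term (0.28). The RPKM slope is no value of Mir218-1 alone, since RPKM does not separate the genes at 10m. The sum of both genes, which is mostly Mir218-2 and no value of Mir218-1, had a called 10m slope (-0.12).

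The directions that turned were of values not called in the main test. For Mir218-1 in Q175 these were, in RPKM, -0.0052 at 2m, -0.27 at 10m (called), -0.037 combined and -0.21 against Q140, and also -0.0088 at 10m against WT alone. Of its slopes, the 2m one turned to -0.027 without Q175 and -0.0095 in RPKM, the 6m one to -0.024 without Q175, -0.037 without WT and -0.020 without block A, the 10m one to 8.3e-04 with no batch term, 5.2e-04 without WT and 0.027 in males, and the combined one to -0.023 without Q175, -0.018 without WT and -0.023 in RPKM. The sum of both genes had the opposite sign to Mir218-1 in Q175 at 2m (-0.0084), 6m (-0.0017), 10m (-0.26, called), combined (-0.13, called) and against Q140 (-0.21), and in the 2m (-0.0093) and combined (-0.056) slopes. For Mir218-2 the 2m slope turned to 0.028 without WT, 0.036 in females and 5.8e-04 in males, the 6m slope to 0.0022 with library totals, 0.0052 summed and 0.022 in females, Q175 at 2m to 0.031 against Q20 alone and Q175 at 6m to 0.011 with no batch term. Without single libraries the ranges that crossed 0 were -0.0049 to 0.071 (Mir218-1, Q175 at 10m), -0.021 to 0.0071 (its slope at 10m), -7.1e-04 to 0.044 (its slope at 2m) and -0.030 to 0.0094 (Mir218-2, slope at 6m). The 6m ratio difference ran from 0.20 to 0.36 and passed without F3, F4 or M2 of Q175 or F1 of WT. The other pseudocounts, 0.5 and 5, changed no ratio call. The causes were not tested. The fits by sex or without a group also held fewer libraries, and the part of that was not tested either.

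Counts of called transcripts moved by over 1.5 times from 52 for the 10m slope to 0 without Q175, 12 in females and 9 in males, from 56 for Q175 at 10m to 37 without the filter and 36 against WT alone, and from 16 for Q175 at 6m to 138 with no batch term and 9 without the filter. For Q175 against Q140 they moved from 15 to 5 without the filter, 8 in RPKM and between 4 and 9 without any of 9 single libraries (F1, F2, F4 or M3 of Q140, or F4, M1, M2, M3 or M4 of Q175). The combined slope went from 70 to 0 without Q175, 30 without WT, 10 in females and 19 in males. The 6m slope, with 6, ranged from 0 to 13. Q175 at 6m could not be fitted against Q20 alone with the batch term, or without block A.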
